A study of Mus musculus with 282 samples.

Results

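The genes followed here act in DNA replication and at the passage of the cell cycle from G1 into S phase. They are 35 Ensembl mouse gene identifiers out of the 55450 in the count tables, chosen by gene function: replication licensing, nucleotide synthesis and G1/S control, among them Pcna, Mcm2 to Mcm7, Mcm10, Rrm1, Rrm2, Tyms, Tk1, Cdc6 and Cdt1. All 35 identifiers were found. The sources used here do not pair the identifiers with symbols, so each value below is given by identifier, and the roles of the genes are given for the set as a whole. The rule for the genes uses their function and no measured value, but they were proposed with earlier results of these data in view.

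Before a cell copies its DNA, Cdc6 and Cdt1 load the Mcm2 to Mcm7 helicase onto replication origins, and Mcm10 takes part in starting it. Pcna is the sliding clamp that holds DNA polymerases on the template, and Rrm1 and Rrm2 (ribonucleotide reductase), Tyms (thymidylate synthase) and Tk1 (thymidine kinase) supply deoxynucleotides. Many of these genes are transcribed under E2F factors, which are released from the retinoblastoma protein late in G1, so that their RNA is known to rise before and during S phase. Granulocyte-monocyte progenitors (GMPs), bone marrow progenitors of granulocytes and monocytes, divide often.

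The series measured RNA in single GMPs from male and female mice aged 12 to 19 weeks. All mice were of the strain GFP-p65/H2BmCherry, homozygous for GFP-p65, in which the NfkB subunit p65 carries a green fluorescent protein, and heterozygous for H2BmCherry, a histone carrying a red fluorescent protein. No group without these reporters was analysed here, and the markers of GMPs could not be looked up by symbol, so the labelled cell type was not checked. Cells were cultured for 8 h under a confocal microscope, picked by micromanipulator and amplified by an adapted Smart-Seq2 protocol, which copies polyadenylated RNA from 1 cell. The authors' deposited cell tables give each of 238 cells a stimulus (TNF, a cytokine that activates NfkB, or an entry that reads blank), a class of response and a cell cycle phase. The groups used most below are oscillatory TNF cells (20 in the experiment with 1 plate and 36 in the experiment with 2 plates), transient TNF cells (25 and 51) and non-responsive blank cells (13 and 34). Another 21 TNF cells were listed as non-responsive (3 and 18). The sources used here do not give the TNF dose, the number of mice or the way in which classes and phases were assigned.

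Each sample is 1 cell, so cells were not counted as replicates. Reads were summed per experiment and group, and the experiment was the replicate (n = 2). The cells held 182301 to 3380416 reads over genes, with medians of 899085 (1-plate) and 1718074 (2-plate experiment). Fewer than 8000 genes were detected in 28 cells, of which 26 were on the second plate of the 2-plate experiment and 24 had received TNF. Levels are in CPM, read counts scaled to the reads over all genes of the cell or sum. Because each group is a sum over cells, a lower level can come from fewer cells that hold the RNA or from less RNA in each, and the sums alone do not tell these apart.

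To show what is shared by genes of this kind outside the counts, the promoters of the 14 genes named above were read from RefSeq (GRCm38.p6), as windows of 300 bases from 250 before to 50 after the annotated start. Windows were found for 13 of the 14 symbols, with none for Mcm4, and Mcm7 had a pair of them. The E2F-type words TTTCCCGC, TTTCGCGC, TTTGCCGC and TTTGGCGC were searched on both strands. At least 1 of them was present in 6 of the 14 windows (42.9%), those of Cdc6, Cdt1, Mcm3, Mcm5, Mcm6 and 1 window of Mcm7, against 744 of 32851 windows of all genes (2.26%). Among windows within the same range of GC content (47 to 71.3%) the share was 2.9%. The CCAAT word, which no E2F-type word contains on either strand, was present in 10 of the 14 windows (71.4%) and in 37.4% of all windows. The 4 windows below show the range: a window with 3 matches, one with 2 that overlap, one with 1 and one with none. Each is written 5′ to 3′ on the strand of its gene, with the matches in capitals.
Mcm6, chr1:128359656-128359955, minus strand: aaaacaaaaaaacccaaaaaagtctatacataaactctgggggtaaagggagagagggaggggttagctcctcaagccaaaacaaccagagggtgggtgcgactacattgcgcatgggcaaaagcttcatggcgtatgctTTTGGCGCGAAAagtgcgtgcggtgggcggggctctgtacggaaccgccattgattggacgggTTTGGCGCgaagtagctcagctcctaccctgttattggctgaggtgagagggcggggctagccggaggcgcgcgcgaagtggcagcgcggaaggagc
Mcm5, chr8:75109259-75109558, plus strand: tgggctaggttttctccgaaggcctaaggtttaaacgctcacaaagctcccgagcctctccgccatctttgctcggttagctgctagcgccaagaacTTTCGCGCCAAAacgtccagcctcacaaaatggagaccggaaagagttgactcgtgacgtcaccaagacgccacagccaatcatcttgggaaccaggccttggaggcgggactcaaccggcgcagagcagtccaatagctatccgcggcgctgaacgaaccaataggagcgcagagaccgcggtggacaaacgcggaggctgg
Cdc6, chr11:98907901-98908200, plus strand: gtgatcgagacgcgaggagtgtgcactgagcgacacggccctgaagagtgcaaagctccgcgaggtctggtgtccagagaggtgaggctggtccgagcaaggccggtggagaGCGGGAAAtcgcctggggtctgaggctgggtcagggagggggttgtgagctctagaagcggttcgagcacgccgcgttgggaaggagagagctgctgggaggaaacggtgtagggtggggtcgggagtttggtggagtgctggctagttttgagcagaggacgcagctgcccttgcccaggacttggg
Pcna, chr2:132253131-132253430, minus strand: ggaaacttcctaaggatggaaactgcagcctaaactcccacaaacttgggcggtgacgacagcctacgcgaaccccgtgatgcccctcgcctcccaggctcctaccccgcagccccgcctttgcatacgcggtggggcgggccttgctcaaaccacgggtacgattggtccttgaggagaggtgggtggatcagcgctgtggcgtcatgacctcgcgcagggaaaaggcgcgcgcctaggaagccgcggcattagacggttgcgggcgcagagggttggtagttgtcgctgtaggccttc
In the Mcm6 window the words began at bases -110, -106 and -47 from the start, and the first pair overlapped. In the Mcm5 window they began at -153 and -149, and in the Cdc6 window at -138. A match describes these letters only, and the window of Pcna shows that these words were not found there.

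RNA of these genes was found in most GMPs. Of the 35 members, 19 had at least 1 read in 90% or more of the 238 cells, 11 in 50 to 90%, and 5 in fewer than 50%. The lowest of those with reads were ENSMUSG00000029591, with a read in 66 cells (27.7%), and ENSMUSG00000002068, with a read in 106 (44.5%). The other 3 members, ENSMUSG00000025574, ENSMUSG00000006585 and ENSMUSG00000031821, had 0 reads in all 238 cells, which allows a share of cells with a read of up to 1.26%, and 0 reads in all 282 samples. Why they are at 0 was not tested, and a gene left without reads by the counting could not be told apart from one without RNA. They were therefore left out of the tests, which 32 members entered.

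The members were present in every cell at very different amounts. Their summed level per cell ran from 213 to 9845 CPM with a median of 3485, and the number of members with a read ran from 6 to 32 with a median of 30. For ENSMUSG00000002870, the levels per cell ran from 0 to 1061 CPM with a median of 246 and an interquartile range of 112 to 422. For ENSMUSG00000029730 they ran from 0 to 762 CPM with a median of 192, and for ENSMUSG00000026355 from 0 to 1007 CPM with a median of 214. The largest share of a member's reads that 1 cell held was 9.87%, for ENSMUSG00000029591.

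Members tended to be high in the same cells. Over the 496 pairs of the 32 members, the median Spearman rho of log2(CPM + 1) between cells was 0.55 in the 67 cells of the 1-plate experiment, with all 496 pairs above 0, and 0.47 in the 171 cells of the 2-plate experiment, with 495 above 0. Within the deposited phases the medians were 0.56 (12 cells) and 0.60 (55 cells) in G1, 0.44 (15 cells) and 0.52 (28 cells) in S, and 0.27 (40 cells) and 0.28 (88 cells) in G2M. These are descriptions: the values of 1 cell share its library and depth. The summed level of the members had a rho with reads per cell of -0.14 (1-plate) and 0.34 (2-plate experiment), and with genes detected of 0.15 and 0.41.

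The deposited phases separated the members in part. The cells were called G1 (67), S (43) or G2M (128), and the sources used here do not say whether the calls used any of these genes, so their levels by phase are a description with no test. The summed members per cell had a median of 1271 CPM in G1, 4714 in S and 3543 in G2M cells. In the 1-plate experiment the medians were 761, 6720 and 3514 CPM, and in the 2-plate experiment 1353, 3757 and 3639 CPM. S cells thus had the highest median in both experiments, by far more in the 1-plate experiment than in the other. Of the G2M cells, 42 of 88 (47.7%) in the 2-plate experiment stood above the S median, against 0 of 40 in the other.

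Taken gene by gene, 27 of the 32 members were higher in S than in G1 sums in both experiments and none was lower in both. Of all 15479 genes 4690 (30.3%) were higher and 4265 lower in both. The members' median log2 ratio of CPM + 1 was 1.72 (1-plate) and 0.52 (2-plate experiment), against 0.09 and -0.02 over all genes. At least 2-fold higher in both were 8 members (25%), against 1.7% of all genes. These 8 were ENSMUSG00000026669, ENSMUSG00000030978, ENSMUSG00000020649, ENSMUSG00000000028, ENSMUSG00000056394, ENSMUSG00000042489, ENSMUSG00000046179 and ENSMUSG00000039748. The ratio of ENSMUSG00000042489, for example, was 2.33 (1-plate) and 1.49 (2-plate experiment). That of ENSMUSG00000000028 was 2.27 and 1.39: its summed level was 53.8 CPM in G1, 264 in S and 117 in G2M cells of the 1-plate experiment, and 62.6, 165 and 136 CPM in the 2-plate experiment.

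The 5 members that were not higher in both experiments were higher in S than in G1 in the 1-plate experiment only. They were ENSMUSG00000002870 (1.06 and -0.03), ENSMUSG00000002068 (2.38 and -0.25), ENSMUSG00000021707 (2.33 and -0.23), ENSMUSG00000022945 (2.11 and -0.28) and ENSMUSG00000029591 (2.13 and -1.53), with the log2 ratio of the 1-plate experiment given first. Between G2M and G1, 22 members were higher in G2M in both experiments and 4 were lower, while of all genes 5084 (32.8%) were higher and 4000 lower. Between S and G2M, 26 members were higher in S in both experiments, against 26.7% of all genes. Of them 1, ENSMUSG00000029591, was higher by at least 2-fold, against 0.627% of all genes. That member had few reads: in the 1-plate experiment 77 in S cells (45.5% in 1 cell) and 23 in G2M cells (47.8% in 1 cell). In the 2-plate experiment it had 122 in S cells (50.8% in 1 cell) and 167 in G2M cells (18% in 1 cell). The order of S above G2M rested in part on 1 plate. Without the first plate of the 2-plate experiment 15 members were higher in S in both experiments and 0 by 2-fold, and the 2-plate median was -0.015. From means of per-cell CPM the count was 19.

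**Figure D1:**
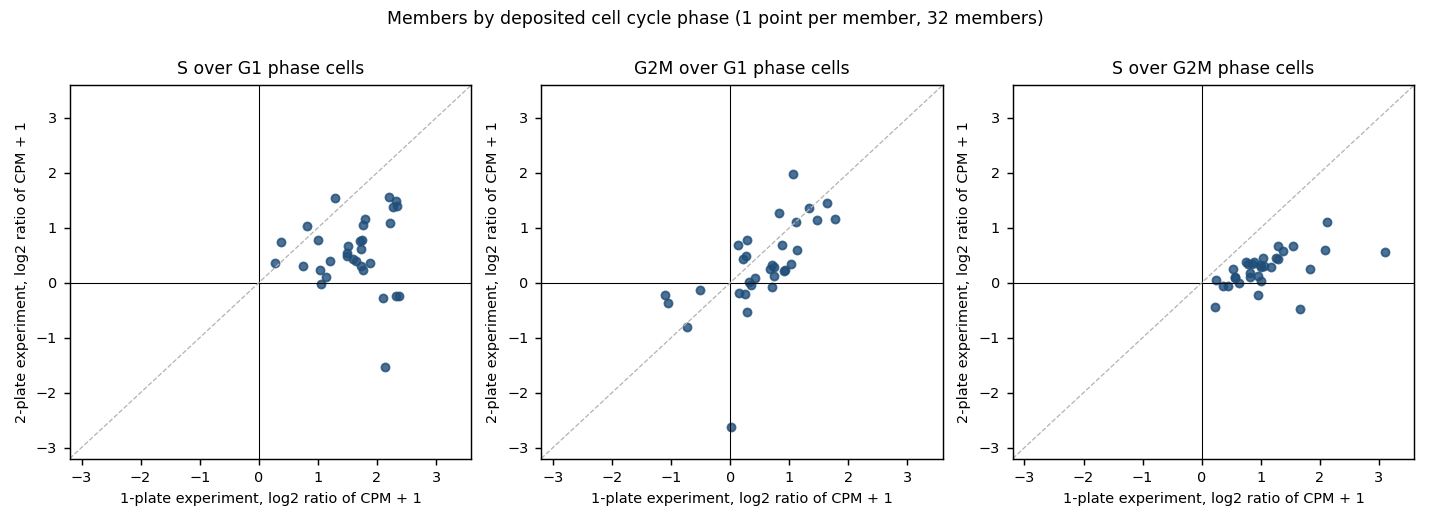
Ratio of the summed levels of each member between deposited cell cycle phases, as log2 of CPM + 1, in the 1-plate experiment (horizontal axis) and the 2-plate experiment (vertical axis). Each point is 1 of the 32 members with reads, and the dashed line marks equal ratios. In the left panel 27 points lie above 0 on both axes, and most lie to the right of the dashed line.

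A G1 call did not mean a low level. In the 1-plate experiment 8 of 12 G1 cells held fewer than 1500 CPM of the members, and 2 held more than the median of the S cells. In the 2-plate experiment 31 of 55 G1 cells held fewer than 1500 CPM and 18 (32.7%) held more than the median of the S cells. The highest level of all 238 cells, 9845 CPM, was in a cell called G1. In the 2-plate experiment 7 of the 28 S cells also held fewer than 1500 CPM, against 0 of 15 in the 1-plate experiment. The summed members had a rho with the authors' S score of 0.66 in the 1-plate experiment (67 cells) and 0.30 in the 2-plate experiment (171 cells). Of the 32 members ENSMUSG00000029730 had the highest rho with that score in both experiments (0.66 and 0.37), and ENSMUSG00000046179 the lowest (0.22 and 0.039).

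Between TNF and blank cells, which addresses how the stimulus changes expression, no member passed the test. The fit held 4 sums (2 experiments and 2 stimuli) and called 69 of 15479 genes, 0.446%, with edgeR's quasi-likelihood test at an adjusted p under 0.05. The sums pooled all listed cells of their stimulus, including TNF cells labelled outlier, unclear or sustained. The blank sums together also held cells labelled oscillatory, transient, outlier or unclear. Of the 32 members 30 had a lower fitted level in TNF cells and 2 a higher one, and 8 (25%) were lower at an unadjusted p under 0.05, which 10.9% of all genes reached in either direction. The members' median log2 fold change was -0.31, against 0.03 over all genes, of which 52.6% had a higher fitted level in TNF cells. DESeq2 called 2 of the members lower, and 4.36% of all genes.

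The member with the smallest p in that fit was ENSMUSG00000029730. Its summed level was 185 CPM in TNF and 283 in blank cells of the 1-plate experiment, and 224 and 374 CPM in the 2-plate experiment. The TNF sums were the lower in both experiments, while the single cells overlapped widely. The log2 fold change was -0.66 ± 0.14 (SE), with an adjusted p of 0.171 in edgeR's quasi-likelihood test. ENSMUSG00000026355 followed at -0.56 ± 0.13 (adjusted p 0.237) and ENSMUSG00000002870 at -0.48 ± 0.13 (adjusted p 0.305).

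Among the comparisons of response classes, members passed the test in 1. In oscillatory TNF cells all 32 members had a lower fitted level than in non-responsive blank cells, and 3 of them fell by the test, against 390 of 16586 genes (2.35%) called in that comparison. The median log2 fold change of the members was -0.50, against 0.02 over all genes, with a range from -1.61 to -0.07. Of all genes 51.1% had a higher fitted level in oscillatory cells. On the log2(CPM + 1) scale 31 of 32 members were lower in both experiments, a count not made for all genes. In edgeR's quasi-likelihood test 16 (50%) were lower at an unadjusted p under 0.05, against 16.2% of all genes in either direction. Members tended to be high in the same cells. The counts of members in this and the other comparisons are therefore not counts of separate results. Summed over the members, oscillatory cells held 2935 CPM (1-plate) and 2966 CPM (2-plate experiment), and non-responsive blank cells 4379 and 4614 CPM.

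ENSMUSG00000029730 fell most among the 3. In the 1-plate experiment its level in oscillatory TNF cells ran from 0 to 470 CPM with a median of 152 (20 cells), and in non-responsive blank cells from 35.5 to 762 with a median of 201 (13 cells). In the 2-plate experiment it ran from 4.93 to 372 CPM with a median of 132 (36 cells) in oscillatory cells, and from 41.8 to 712 with a median of 324 (34 cells) in blank cells. The cells of the classes overlapped in both experiments. The summed levels, 1 per class and experiment, were 148 CPM in oscillatory and 288 in blank cells of the 1-plate experiment. In the other they were 169 and 377 CPM. The log2 fold change was -0.99 ± 0.14 (SE), with an adjusted p of 0.0246 in edgeR's quasi-likelihood test.

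For ENSMUSG00000026355 the cells ran from 0 to 880 CPM (median 197) in oscillatory and from 0 to 881 CPM (median 281) in blank cells of the 1-plate experiment. In the 2-plate experiment they ran from 0.80 to 561 CPM (median 151) and from 3.76 to 910 CPM (median 318). The oscillatory medians were the lower in both, with ranges that overlapped almost wholly in the 1-plate experiment. The summed levels were 211 CPM (oscillatory) and 372 CPM (blank), and 203 and 371 CPM in the other experiment. The log2 fold change was -0.78 ± 0.12, with an adjusted p of 0.0351 in the same test.

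For ENSMUSG00000002870 the cells ran from 23.96 to 557 CPM (median 207) in oscillatory and from 80.3 to 818 CPM (median 300.3) in blank cells of the 1-plate experiment. In the 2-plate experiment they ran from 0 to 550.2 CPM (median 148) and from 1.88 to 1061 CPM (median 323). Here too the oscillatory cells had the lower medians and the lower maxima in both experiments. The summed levels were 209.7 CPM (oscillatory) and 351 CPM (blank), and 209 and 401 CPM in the other experiment. The log2 fold change was -0.78 ± 0.12, with an adjusted p of 0.0359 in the same test.

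**Figure D2:**
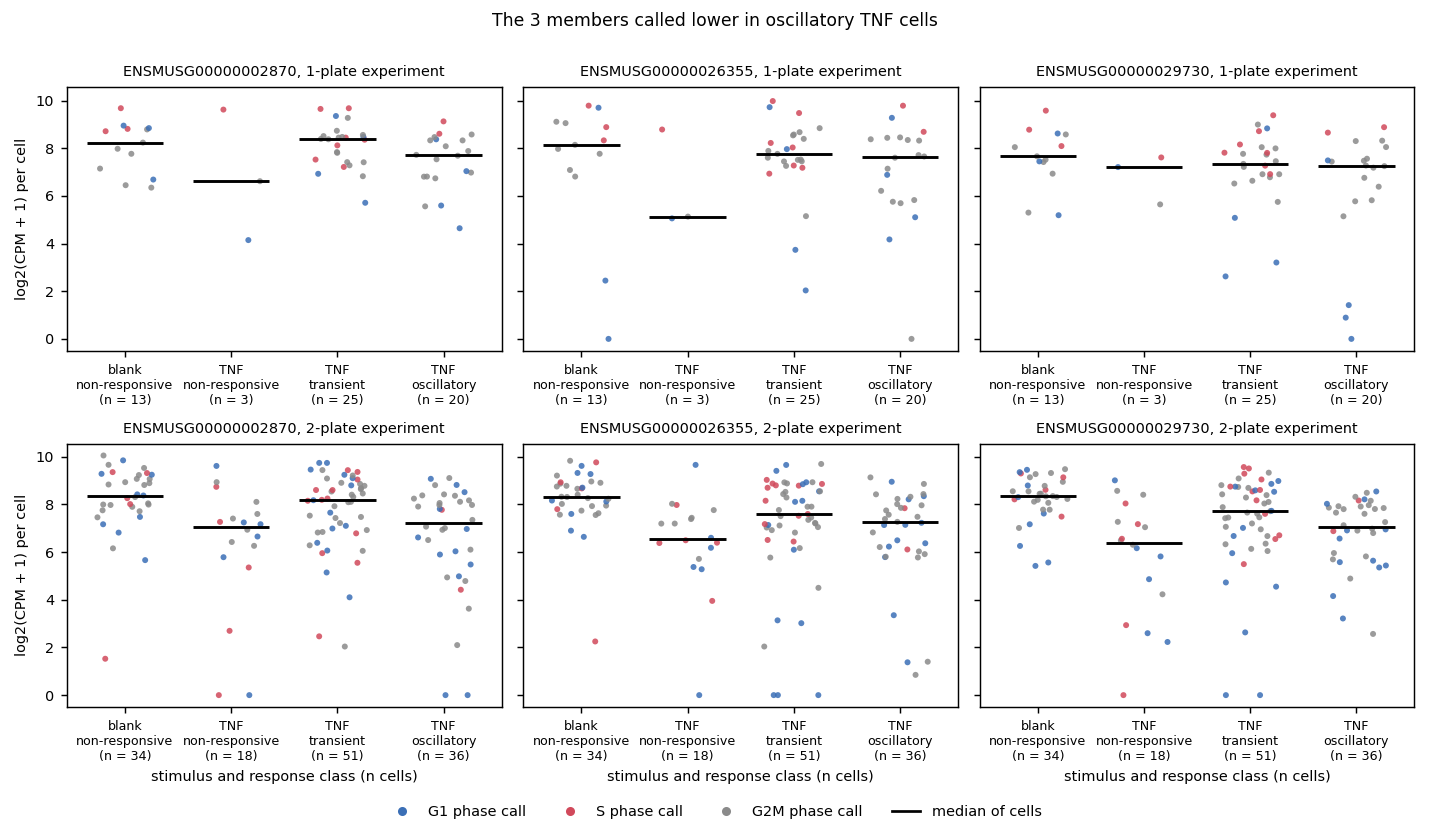
Level of the 3 members that fell in oscillatory TNF cells, as log2(CPM + 1) in each cell (vertical axis), by stimulus and response class (horizontal axis), for the 1-plate experiment (top) and the 2-plate experiment (bottom). Points are cells coloured by deposited phase and bars are medians over cells. The bars of oscillatory TNF cells lie below those of non-responsive blank cells in all 6 panels, and the points overlap.

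Of the members that were not called, 4 had a larger fold change than any of the 3, each with a larger standard error. ENSMUSG00000029591, which of the members with reads was found in the fewest cells, was at -1.61 ± 0.54 (adjusted p 0.221 in edgeR's quasi-likelihood test). In the blank sum of the 1-plate experiment 1 cell held 94.6% of its 37 reads. ENSMUSG00000002068 was at -1.16 ± 0.48, ENSMUSG00000028212 at -1.09 ± 0.51 and ENSMUSG00000042489 at -1.03 ± 0.22 (adjusted p 0.081). ENSMUSG00000028560, with a smaller fold change of -0.61 ± 0.14, had an adjusted p of 0.0945 in edgeR's quasi-likelihood test. The members nearest to 0 were ENSMUSG00000046179 (-0.07 ± 0.26) and ENSMUSG00000030978 (-0.17 ± 0.15). These names beyond the called members were chosen after their values were seen.

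The 3 members were also called with relative log expression factors and without a filter, which called 2.54% and 2.13% of all genes. Thinned cells and 1 sum per plate with all plates each called 4 members, the 3 among them, and 5.1% and 2.71% of all genes. Plates of 1 experiment are not independent replicates, though the sums per plate count them separately (5 residual degrees of freedom). With 1 plate left out in turn, 0 members were called without the 1-plate experiment and 0 without the first plate of the 2-plate experiment. Without its second plate 1 was called, ENSMUSG00000029730. Of all genes, the fits with a plate left out called 0.689%, 0.681% and 1.77%. At such shares, 0 or 1 of 32 members cannot be read as a loss of these members in particular. The fold changes of the 3 stayed between -1.03 and -0.71 in these fits. Scaling by the spike-in RNA in place of the genes moved the median of all genes to 0.56 in this comparison. With it 0 members were called, beside 0.681% of all genes. On that scale 19 of 32 members had a fold change above 0, with a median of 0.05. All 32 were below the median of all genes with both scalings, and their median relative to all genes was -0.52 with both. Other factors shift all genes by nearly the same amount, so this likeness was nearly fixed in advance and is no separate support. Without the experiment term 0 members were called, beside 0.205% of all genes.

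**Figure D3:**
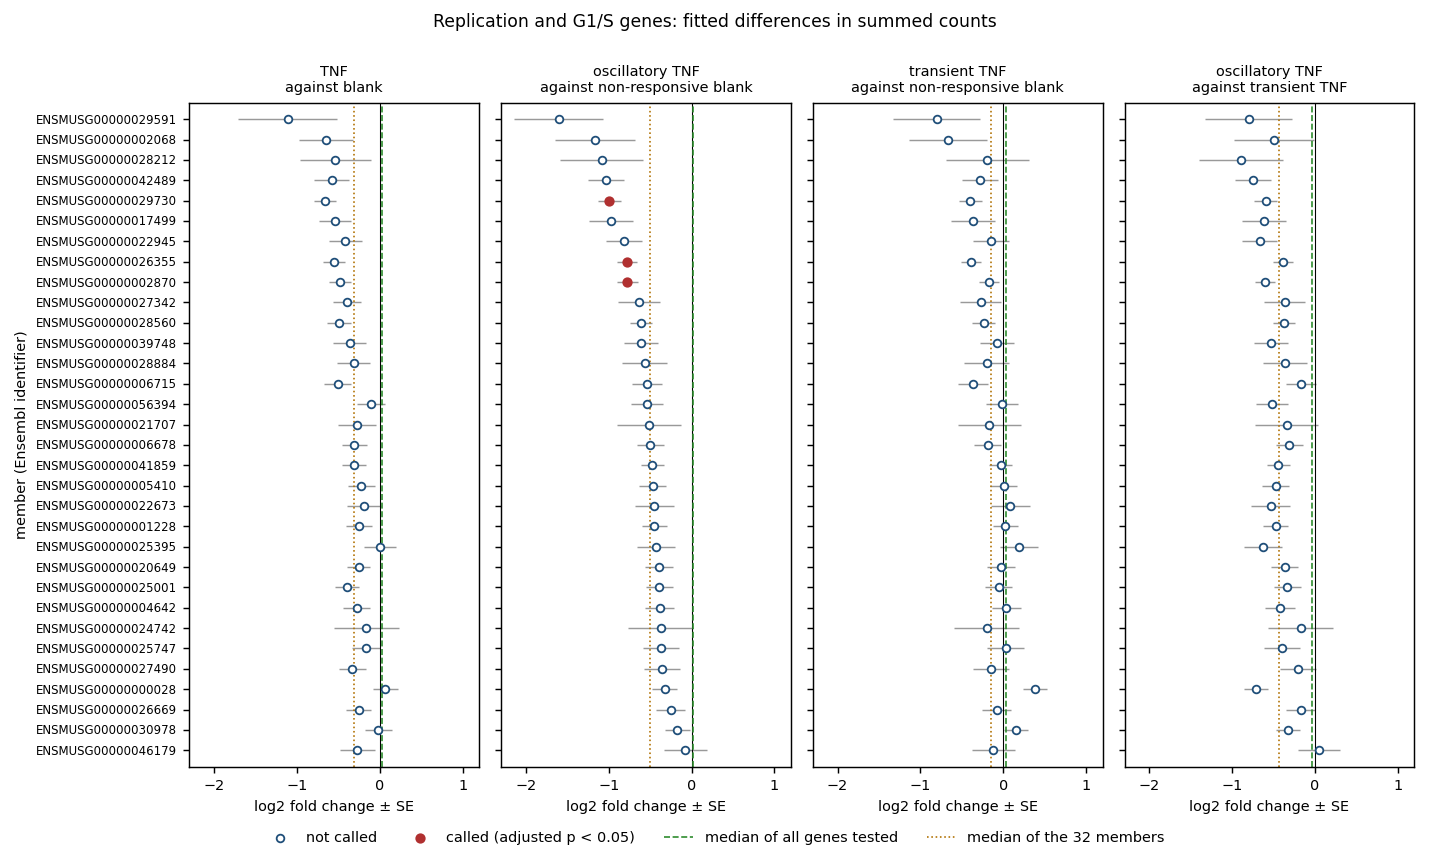
Fitted log2 fold change of each of the 32 members (horizontal axis, with its standard error) in the 4 comparisons, ordered by the oscillatory against blank comparison. Filled points passed the test, the dashed line is the median of all genes tested and the dotted line that of the members. The 3 filled points are in the oscillatory against blank panel, where all 32 points lie below 0.

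The phase calls of these classes also differed in value, with intervals that overlapped. S cells made up 4 of 56 oscillatory TNF cells (7.14%, exact binomial 95% interval 1.98 to 17.3%), 8 of 47 non-responsive blank cells (17.02%, 7.65 to 30.8%) and 19 of 76 transient TNF cells (25%, 15.8 to 36.3%). These intervals cover counting error only. With phase as a further term in the fit, the members' median was -0.38 and 1 member was called, ENSMUSG00000026355, beside 1.67% of all genes. That fit kept sums of 5 or more cells per experiment, class and phase (17 sums, 9 residual degrees of freedom). The 2 oscillatory S cells of each experiment were thus left out. In the 1-plate experiment oscillatory and blank cells entered with G2M cells only. Phases of 1 experiment are not independent replicates. With G2M cells alone the members' median was -0.20 and 0 members were called, beside 1.23% of all genes. Within G2M cells the experiments did not give the same picture. The summed members stood at 3080 CPM in 14 oscillatory and 3141 in 7 blank cells of the 1-plate experiment, and at 3335 CPM in 22 oscillatory and 4858 in 20 blank cells of the 2-plate experiment.

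For transient TNF cells the blank sums were the same, so this comparison is not independent of the one above. No member was called, against 22 of 16586 genes (0.133%), and DESeq2 called 0 members, beside 1.93% of all genes. In edgeR 1 member was higher and 2 lower at an unadjusted p under 0.05 (9.38%, near the 7.48% of all genes). Of the members 24 were lower and 8 higher, with a median of -0.15 against 0.03 over all genes. In both experiments 14 members were lower and 2 higher. Of all genes 53.1% had a higher fitted level in transient cells. The summed members were 4275 CPM (1-plate) and 4059 CPM (2-plate experiment). The smallest p belonged to ENSMUSG00000026355, at -0.40 ± 0.12 (adjusted p 0.513 in edgeR's quasi-likelihood test). ENSMUSG00000029730 was also at -0.40, with a SE of 0.14 (adjusted p 0.571).

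ENSMUSG00000000028 was the member with the highest fold change in transient against blank cells. Its level ran from 0 to 408 CPM (median 164) in transient and from 0 to 315 CPM (median 87.2) in blank cells of the 1-plate experiment. In the 2-plate experiment it ran from 0 to 499 CPM (median 126) and from 5.64 to 309.5 CPM (median 112). The transient cells had the higher medians and maxima in both experiments, with overlap. Its log2 fold change was 0.38 ± 0.15, with an adjusted p of 0.626 in edgeR's quasi-likelihood test, so that it did not pass. With phase as a term the median of all members in this comparison was 0.13, on the other side of 0, and with G2M cells alone it was 0.09.

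Between the 2 TNF classes, oscillatory against transient, 31 of 32 members were lower in oscillatory cells. In both experiments 29 were lower, a count not made for all genes. No member passed the test, against 33 of 16586 genes (0.199%), and 13 (40.6%) were lower at an unadjusted p under 0.05, against 10.1% of all genes in either direction. The members' median was -0.43, against -0.04 over all genes, of which 46.5% had a higher fitted level in oscillatory cells. DESeq2 called 3 of 32 members lower, and 3.8% of all genes. A stricter filter on low counts called 1 of 29 members, a share near that of all genes (3.1%). The smallest p was that of ENSMUSG00000002870, with summed levels of 209.7 CPM in oscillatory and 319 in transient cells of the 1-plate experiment, and of 209 and 347 CPM in the other. Its log2 fold change was -0.61 ± 0.12 (adjusted p 0.139 in edgeR's quasi-likelihood test).

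ENSMUSG00000000028 had almost the same p there. Its summed levels were 94.4 CPM in oscillatory and 176 in transient cells of the 1-plate experiment, and 98.9 and 155 CPM in the 2-plate experiment, with the oscillatory sum the lower in both. The log2 fold change was -0.71 ± 0.15 (adjusted p 0.142). ENSMUSG00000029730 was at -0.60 ± 0.14 (adjusted p 0.182). The fold changes of the 3 class comparisons come from 1 fit and share sums, so their likeness is no separate evidence.

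Low values were also seen in another class. Non-responsive TNF cells, for which only the 2-plate experiment had enough cells for a sum, held 2459 CPM of the members there (18 cells), beside 2966 in oscillatory, 4059 in transient and 4614 in non-responsive blank cells. The 3 non-responsive TNF cells of the 1-plate experiment together held 2859 CPM. Over both experiments the median per cell was 2151 CPM in the 21 non-responsive TNF cells, 3058 in oscillatory, 3764 in transient and 4593 in non-responsive blank cells. These values were not tested. Of the non-responsive TNF cells of the 2-plate experiment 6 of 18 had fewer than 8000 genes, beside 5 of 36 oscillatory, 7 of 51 transient and 2 of 34 non-responsive blank cells. The part of RNA quality in these levels was not tested for the non-responsive TNF cells. For oscillatory against blank cells, leaving out all cells with fewer than 8000 genes gave 4 called members, beside 2.99% of all genes, and a median of -0.51.

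**Figure D4:**
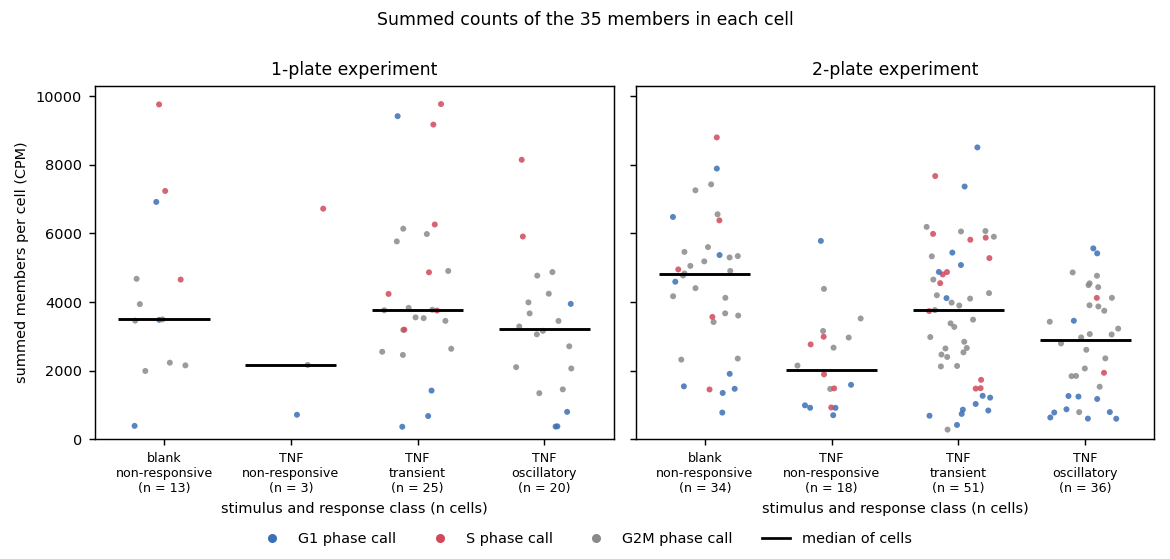
Summed level of the 35 members in each cell in CPM (vertical axis), by stimulus and response class (horizontal axis), in the 1-plate experiment (left) and the 2-plate experiment (right). Points are cells coloured by deposited phase and bars are medians over cells. The bars of oscillatory TNF cells lie below those of non-responsive blank and transient TNF cells in both panels, and each class holds cells from below 1000 to above 5000 CPM.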

How the data were processed

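Single GMPs were profiled by adapted Smart-Seq2 with Nextera DNA Flex libraries, per the labels' protocols. The authors deposited whole-read counts per Ensembl gene, with SAMtools, featureCounts and Subread 1.5.0 named in the submitters' processing notes. The genome build, annotation and strand setting were not given in the sources used here, and reads of overlapping, antisense or near-identical genes were not told apart. Reads carry no molecular identifiers. The authors' deposited cell tables give phase scores for 238 of the 282 samples, each a fraction, and the 3 scores of a cell sum to 1. The 44 other samples entered no comparison, and neither did 357 count columns without a matching sample. The 92 spike-in features were kept out of library sizes, and they held 0.169% and 1.62% of reads in the 1-plate and 2-plate experiments.

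Counts were summed per experiment and stimulus (4 sums, 1 residual degree of freedom) and per experiment, stimulus and class of 5 or more cells (10 sums, with 2 residual degrees of freedom). They were tested with edgeR 4.0.16 in R 4.3.3 (default low-count filter, TMM factors, experiment as a term, quasi-likelihood test, two-sided, Benjamini-Hochberg over all genes tested, threshold 0.05). A standard error is the size of the log2 fold change over the root of its F statistic. A run of the fits on simulated sums used planted changes larger than any fitted for the members in the main fits. It gives no information on changes of the members' size. Whether the experiments used separate animals is not labelled, so p-values rest only on spread between the sums of these 2 experiments, which may be technical. The spread used for a gene also comes in part from other genes. The test draws it toward a value shared over genes, with 4.64 (stimulus fit) and 4.32 (class fit) prior degrees of freedom. Alternatives were DESeq2 1.42.0, other factors and filters, sums per plate, leaving out each plate, thinning of 214 cells to 458260 reads (24 were too shallow), cells with 8000 or more genes, phase as a term and G2M cells alone.

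The members and lists were chosen with earlier results of these data known. The rule for named genes gives full statistics for members called in a comparison and the 3 with the smallest p. The reference gene table holds 49997 records, and 0 carry an Ensembl identifier. The further lists set by symbol (other replication genes, G2/M genes, D cyclins and inhibitors, and markers of GMPs and of other blood cells) were therefore not analysed here, and members could not be grouped by role.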

Additional observations from a re-analysis of the deposited data

Results flagged for a closer look

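In 2 of the small classes, the number of members with a read in 1 cell stood far below that in the others of its class. Among the 5 sustained TNF cells of the 2-plate experiment, 1 cell had reads for 6 members and the others for 25 to 31. That cell was called G2M, held 332188 reads and 4504 detected genes, and its summed members were at 247 CPM. Among the 5 oscillatory blank cells, 1 cell called G1 had reads for 25 members and the others for 30 to 32, and its summed members were at 896 CPM from 853029 reads. The check was made for 4 sets of values, and chance alone marks about 1 in 20 such sets. Neither class entered the comparisons named in the report, although both had a sum in the class fit.

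Of the 44 samples outside the cell tables, 1 had a summed level of the members of 14912 CPM, above the highest of the blank cells (9845 CPM). It was a well of the 1-plate experiment with 43791 reads and 1922 detected genes, and 653 reads of 7 members made up its level. Over the 44 samples the summed members ran from 60.9 to 14912 CPM with a median of 3026, on 1805 to 1130586 reads, and the median number of members with a read was 10.5.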

How the results depend on the processing

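In these values, the number of members called and the members' median log2 fold change were recomputed under the alternatives. DESeq2 called 2 members for TNF against blank, 7 for oscillatory TNF against blank and 3 for oscillatory against transient TNF, and the 7 included all 3 of the main fit. Of all genes it called 4.36%, 7.75% and 3.8% in these comparisons. With phase as a term, 1 member was called for TNF against blank and 1 for oscillatory TNF against blank, beside 2.07% and 1.67% of all genes. The stricter filter called 5 and 1 for oscillatory TNF against blank and against transient TNF, beside 8.75% and 3.1% of all genes. For oscillatory TNF against blank, spike-in factors, no experiment term and G2M cells each called 0 members, beside 0.681%, 0.205% and 1.23% of all genes. Leaving out each plate called 0 to 1 members, beside 0.681% to 1.77% of all genes. The lone plates in those fits share the spread of the others.

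The members' median for oscillatory TNF against blank was -0.41 with thinned cells, -0.38 with phase as a term, -0.20 with G2M cells, -0.60 from means of per-cell CPM and -0.62 to -0.49 without each plate. For TNF against blank it was -0.20 with thinned cells and -0.17 with G2M cells. For transient TNF against blank it was -0.12 with the stricter filter, -0.11 with sums per plate, -0.077 with thinned cells, -0.093 with cells of 8000 or more genes, 0.13 with phase as a term, 0.085 with G2M cells and -0.22 to -0.043 without each plate. For oscillatory against transient TNF it was -0.28 with G2M cells. Spike-in factors gave 0.087, 0.046, 0.27 and -0.29 in the order TNF, oscillatory and transient against blank and oscillatory against transient, beside all-gene medians of 0.42, 0.56, 0.41 and 0.13. The causes were not tested.

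The number of members higher in S than in G1 in both experiments was 26 to 29 under its alternatives, of which thinning was chosen after seeing the data. A threshold of 5 reads gave 14 members in 90% or more of cells. No paired analysis was possible because the well numbers pair no cells of different groups. Groups were compared within experiments through the experiment term and, with sums per plate, within plates. With 2 experiments and 1 or 2 residual degrees of freedom, small differences were not detectable, and the depth of the shallowest cells limits the members found in few cells.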
